A study of Nothobranchius furzeri with 20 samples.

Results

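In killifish skin, 150 genes were close to silent in most fish and strongly raised in a few. They were chosen from 26739 genes in the count table of 20 skin libraries. Read counts were scaled to CPM, the reads of a gene per 1000000 counted reads of its library. A gene qualified when its median over the 20 libraries was under 1 CPM, it reached 10 CPM or more in 1 to 4 libraries, its mean was under 1000 CPM, and its CPM ranges overlapped between every pair of 4 sets of 5 libraries. In all 203 genes qualified, and the 150 with the largest maximum CPM were kept as members. Since measured levels chose the members, their maxima, their carriers and their lack of separation between the sets are given as descriptions.

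The fish were male Nothobranchius furzeri, a short-lived annual killifish, of the strain MZM-04/10p. Of the 20 libraries, 10 were from fish of 27 weeks that had exercised in a swim tunnel, 5 from exercised fish of 9 weeks and 5 from fish of 9 weeks whose perturbation is labelled none. The 27-week fish came with 2 runs of title numbers, JM132 to JM136 (replicates 1 to 5) and JM140 to JM144 (replicates 6 to 10), the exercised 9-week fish with JM117 to JM121 and the unexercised 9-week fish with JM124 to JM128. These 4 runs are the sets of the selection. All 27-week fish had exercised, so age was compared among exercised fish. The labels give no separate origins for libraries of a group, so a p-value here speaks of the spread among the sampled libraries, which may be technical. Libraries held 20597690 to 38619614 counted reads, so that 10 CPM stood for about 206 to 386 reads.

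Fish skin is built of an epidermis over a dermis with scales, pigment cells, nerves and vessels, and it lies directly on muscle. A bulk library reports the sum over every cell in the piece that was taken. In such a library a change in the number of cells of a type and a change in RNA per cell cannot be told apart. The files give identifiers alone, and 0 of 26739 matched the gene table of the reference assembly NfurGRZ-RIMD1. No member could therefore be given a name, a role or a sequence, and the labelled tissue could not be checked against marker genes.

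The members were carried by few fish, and by 1 fish above all. A member is called raised in a library where it reached 10 CPM. Replicate 3 of the unexercised 9-week fish had 114 of the 150 members raised, and for 86 of these it was the only such library. Replicate 7 of the 27-week fish had 36 members raised, replicate 1 of the unexercised 9-week fish 24 and replicate 4 of that group 18. The other 16 fish had 0 to 8 members raised each, and 8 of the 20 fish had 0.

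By group, the number of raised members in the 27-week fish ran from 0 to 8 in replicates 1 to 5 and from 0 to 36 in replicates 6 to 10. In the exercised 9-week fish it was 2 in replicate 1 and 0 in each of the other 4. In the unexercised 9-week fish it was 24, 2, 114, 18 and 0. Every labelled group thus held at least 1 fish with a raised member and at least 1 with 0. The 150 members gave 228 raised values in all. Of the members, 111 were raised in 1 library, 14 in 2, 11 in 3 and 14 in 4.

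**Figure D1:**
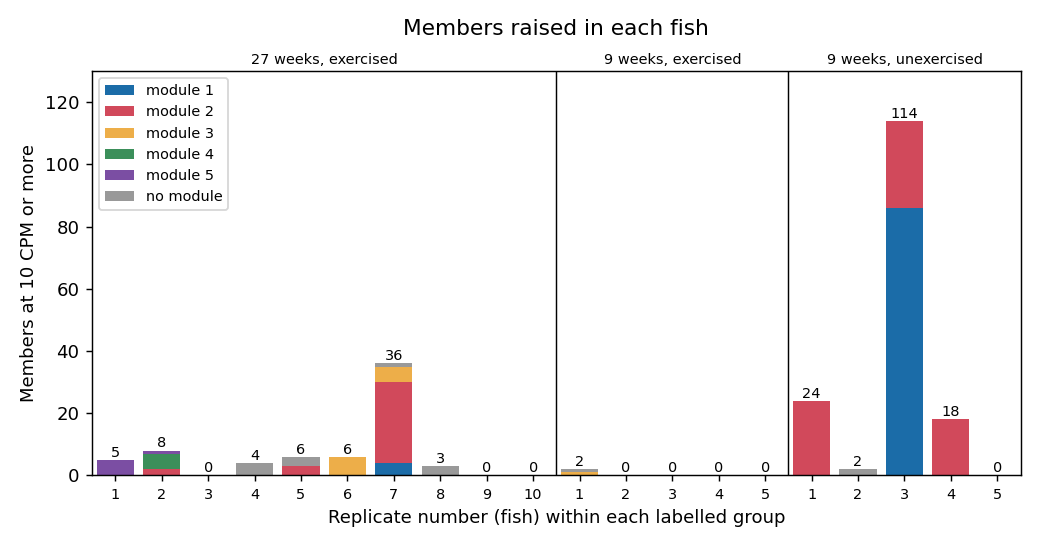
Number of the 150 members at 10 CPM or more in each of the 20 fish, with fish in replicate order inside each labelled group and bars divided by module. The bar of replicate 3 of the unexercised 9-week fish reaches 114, that of replicate 7 of the 27-week fish reaches 36, and 8 fish have no bar.

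The maximum of a member lay between 12.3 and 134.53 CPM, with a median of 19.1 CPM. It was at least 20 CPM in 71 members and at least 50 CPM in 9. The median member stood at 0.433 CPM in its median library. The highest library of a member exceeded the next by 7.92-fold in the median, and by at least 5-fold in 89 of 150. The last member inside the list, Nfu_g_1_009033, had a maximum of 12.31 CPM and the first gene outside it, Nfu_g_1_001943, had 12.27 CPM. Both had their maximum in replicate 3 of the unexercised 9-week fish. The remaining 53 qualifying genes below this border were raised in that fish in 32 cases, in replicate 7 of 27 weeks in 11 and in each other fish in at most 5.

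Summed over the 150 members, the level was 1047 CPM in replicate 7 of the 27-week fish and 2529 CPM in replicate 3 of the unexercised 9-week fish. The other 18 fish had 35.8 to 591 CPM, with the lowest sum in replicate 2 of the exercised 9-week fish. Below the raised level the members were not evenly quiet either. In replicate 2 of the 27-week fish 69 members reached 2 CPM, in replicate 7 of that group 60 and in replicate 1 of the exercised 9-week fish 52, although the last of these had only 2 at 10 CPM. Replicates 2 and 4 of the exercised 9-week fish had 0 members at 2 CPM.

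Most members were raised together. Over all pairs of members the median Pearson correlation of log2(CPM + 1) across the 20 libraries was 0.51, and 0.37 without replicate 3 of the unexercised 9-week fish. This and the correlations that follow are descriptions with no p-value, since all values of a library share its depth and its tissue sample. Average linkage, cut at a correlation of 0.6, put 138 of the 150 members into 5 modules of at least 5 genes, with 87, 35, 6, 5 and 5 members. The remaining 12 members belonged to none.

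**Figure D2:**
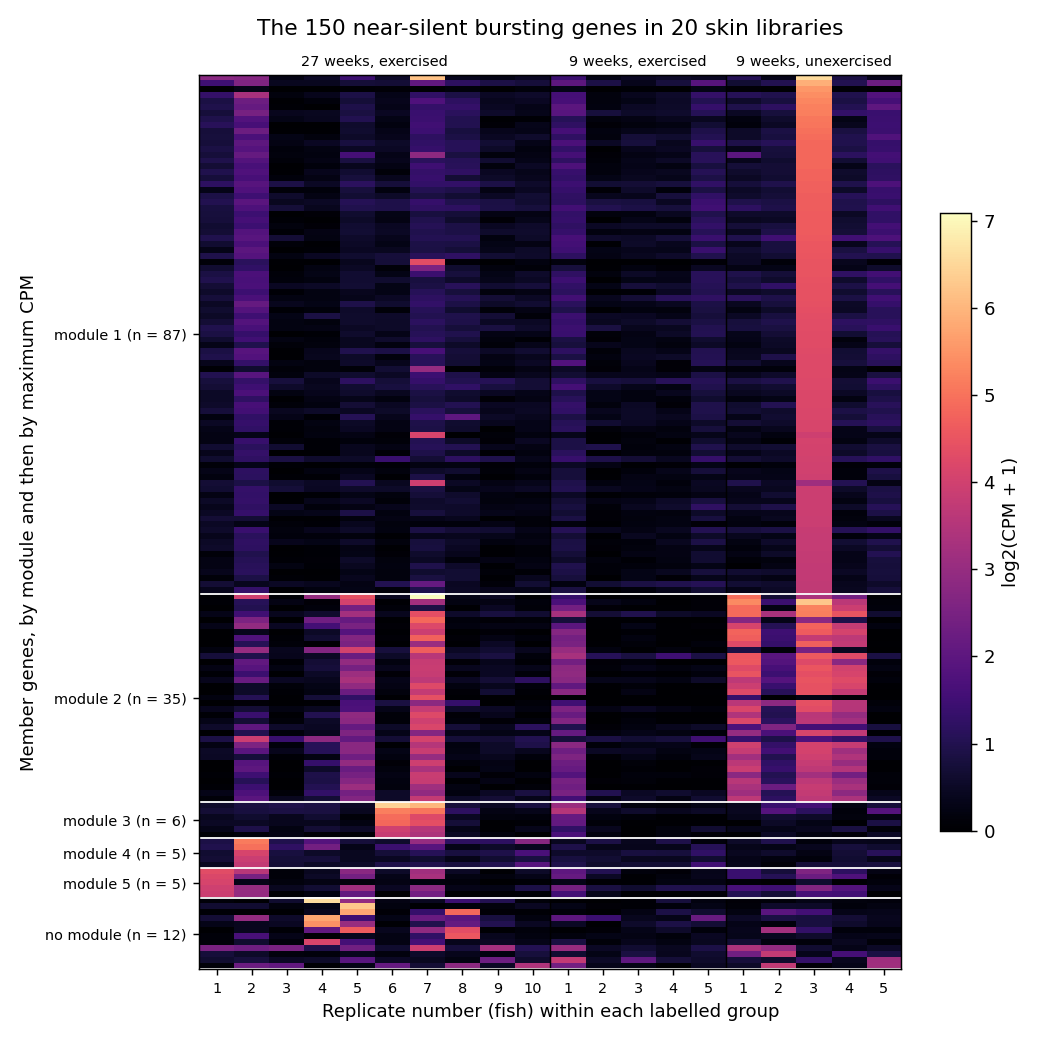
Heat map of log2(CPM + 1) for the 150 members (rows, ordered by module and then by maximum CPM) in the 20 fish (columns, by labelled group and replicate). Module 1 (87 genes) forms 1 bright column in replicate 3 of the unexercised 9-week fish, and module 2 (35 genes) is bright in that fish, in replicates 1 and 4 of its group and in replicate 7 of the 27-week fish.

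Module 1, with 87 members, was raised almost entirely in 1 fish. Of its members 86 were raised in replicate 3 of the unexercised 9-week fish, and 85 had their maximum there. The median level of the module was 18.6 CPM in that fish and 0.0857 to 1.79 CPM in the other 19. Replicate 7 of the 27-week fish had 4 of the 87 raised, and no further library had any. Within the module the top library exceeded the second by a median of 9.98-fold, and by at least 5-fold in 78 genes.

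The members of module 1 also varied together among the other fish. With replicate 3 of the unexercised 9-week fish left out, 75 of the 87 members still fell into a common module, and the median pairwise Pearson correlation over the remaining 19 libraries was 0.80, against 0.96 over all 20. The median Spearman correlation over the same 19 was 0.75. At this low level the module was highest in replicate 2 of the 27-week fish (median 1.79 CPM), replicate 1 of the exercised 9-week fish (1.30 CPM), replicate 5 of the unexercised 9-week fish (1.19 CPM) and replicate 7 of the 27-week fish (1.12 CPM). It was lowest in replicates 3 and 4 of the 27-week fish and replicate 2 of the exercised 9-week fish, at 0.0857, 0.155 and 0.130 CPM.

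Nfu_g_1_012207, with the largest maximum of module 1, was one of the 4 members of the module that were raised in replicate 7 of the 27-week fish. In the 27-week fish its lowest value was 0.200, its median 0.429 and its highest 72.0 CPM, in replicate 7. Exercised 9-week fish had 1.67, 0.228, 0.381, 0.450 and 0.378 CPM, and unexercised 9-week fish had 1.08, 0.276, 92.3, 0.819 and 0.298 CPM. A pair of fish of different groups stood out and the ranges of all groups overlapped. With CPM scaled by trimmed mean of M-values (TMM) factors, the order of this pair turned round and the maximum was 84.8 CPM in replicate 7 of the 27-week fish.

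Nfu_g_1_009281, the next gene of module 1, followed the module with a correlation of 0.98 to the mean of its other members. Its lowest value in the 27-week fish was 0.337, its median 0.784 and its highest 5.16 CPM. Levels in exercised 9-week fish were 2.99, 0.881, 0.299, 0.727 and 2.69 CPM, and in unexercised 9-week fish 0.598, 1.02, 58.8, 0.997 and 3.87 CPM. Replicate 3 of the unexercised fish was the one high value, and the second in its group was replicate 5. Per kilobase of gene length its maximum was 21.5 CPM, against 55.0 CPM for Nfu_g_1_012207.

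Module 2, with 35 members, had a median above 10 CPM in 4 fish of 2 groups and intermediate levels in others. Its median level was 13.2 CPM in replicate 7 of the 27-week fish, and 13.8, 15.6 and 10.3 CPM in replicates 1, 3 and 4 of the unexercised 9-week fish. Below these came replicate 5 of 27 weeks at 4.97 CPM, replicate 1 of the exercised 9-week fish at 4.26 CPM, replicate 2 of 27 weeks at 1.79 CPM and replicate 2 of the unexercised 9-week fish at 1.49 CPM. The remaining 12 fish had medians of 0.0346 to 0.570 CPM. Levels therefore formed a series across fish and not a split into raised and silent.

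Raised members of module 2 numbered 26 in replicate 7 of the 27-week fish, and 24, 28 and 18 in replicates 1, 3 and 4 of the unexercised 9-week fish. Replicate 5 of 27 weeks had 3 and replicate 2 of that group had 2. The selection bounded the number of raised libraries per member at 4. It left out 35 near-silent genes that were at 10 CPM or more in 5 or more libraries. In 14 of the 35 members of module 2 all 4 permitted libraries were used. The top library of a member exceeded the second by a median of only 1.24-fold. Over all 20 libraries the median pairwise correlation was 0.94, and it was 0.93 without replicate 3 of the unexercised 9-week fish, with a median Spearman correlation of 0.79. Counting raised members over all modules, 23 of the 24 in replicate 1 of the unexercised 9-week fish were raised in replicate 3 as well, and all 18 of replicate 4 were.

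Nfu_g_1_001861 had the largest maximum of all members, 134.53 CPM in replicate 7 of the 27-week fish, or 118.9 CPM per kilobase. The lowest value in the 27-week fish was 0 and the median 0.354 CPM. In exercised 9-week fish the values were 1.51, 0, 0.0272, 0 and 0.0378 CPM, and in unexercised 9-week fish 29.7, 0.635, 9.33, 4.24 and 0 CPM. Its 27-week fish thus ran from 0 to the top of the whole list, and the groups overlapped.

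Nfu_g_1_007959, also of module 2, had a lowest value of 0.0317, a median of 0.190 and a highest value of 15.6 CPM in the 27-week fish, in replicate 5, followed by 8.16 CPM in replicate 7. Levels in exercised 9-week fish were 2.19, 0.261, 0.163, 0 and 0.0757 CPM, and in unexercised 9-week fish 39.96, 1.68, 75.5, 11.4 and 0.0894 CPM. Replicates 1 and 3 of the unexercised fish were the highest of all, while replicate 5 of that group was lower than replicates 1 to 3 of the exercised 9-week group.

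**Figure D3:**
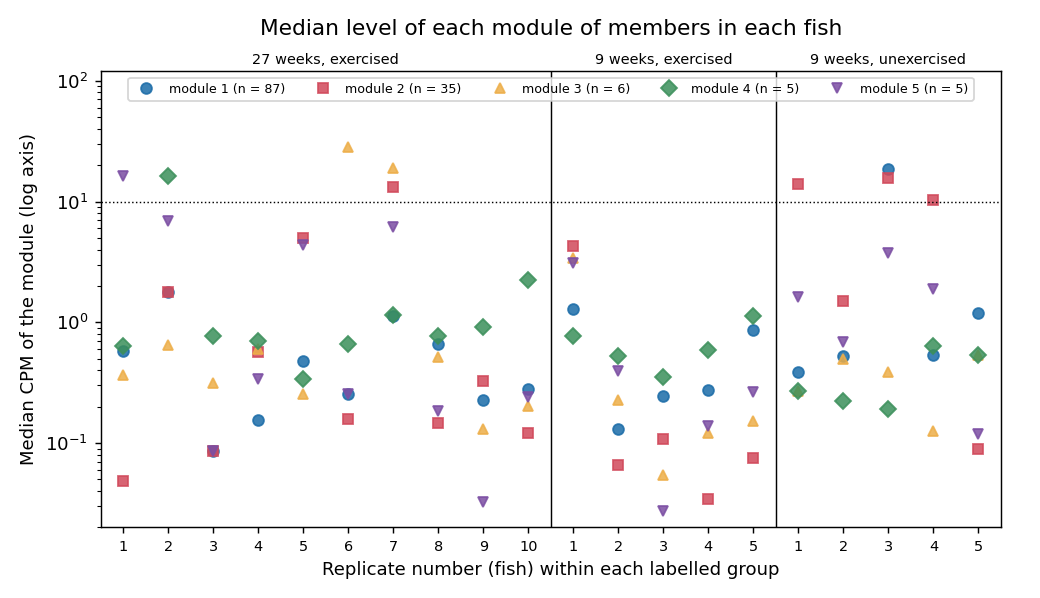
Median CPM of the members of each of the 5 modules in each fish, on a log axis, with the dotted line at 10 CPM. Module 2 spreads from 0.0346 to 15.6 CPM, while modules 1, 4 and 5 each have 1 fish above the line (18.6, 16.3 and 16.4 CPM).

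Module 3 held 6 members, all with their maximum in replicate 6 of the 27-week fish, where the median was 28.4 CPM. Replicate 7 of the same group followed with a median of 18.9 CPM and 5 raised members. The third fish was replicate 1 of the exercised 9-week group with a median of 3.44 CPM and 1 raised member. In the other 17 fish the median of the module was 0.0544 to 0.645 CPM. The 6 genes had a median pairwise correlation of 0.97, and 0.95 without replicate 6.

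In module 3, Nfu_g_1_001498 had a lowest value of 0.359, a median of 0.778 and a highest value of 85.4 CPM in the 27-week fish, where replicate 7 had 63.6 CPM and the other 8 had at most 0.943 CPM. Exercised 9-week fish had 7.52, 0.718, 0.136, 0.104 and 0.227 CPM, and unexercised 9-week fish 0.329, 1.63, 1.97, 0.178 and 0.686 CPM. Nfu_g_1_018150 had a lowest value of 0.196, a median of 0.778 and a highest of 35.1 CPM in the 27-week fish, with 31.9 CPM in replicate 7. Levels in exercised 9-week fish were 10.5, 0.294, 0.517, 0.311 and 0.416 CPM, and in unexercised 9-week fish 0.359, 2.68, 1.27, 0.107 and 2.65 CPM. Both genes singled out the same 3 fish in the same order.

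Modules 4 and 5 had 5 members each and 1 leading fish each, replicate 2 and replicate 1 of the 27-week group. The median of module 4 was 16.3 CPM in replicate 2, next 2.22 CPM in replicate 10 of the same group, and at most 1.15 CPM elsewhere. Without replicate 2 the median pairwise correlation of its members was 0.42, against 0.82 with it, so their likeness rested on that fish. The median of module 5 was 16.4 CPM in replicate 1, and 6.88, 6.10 and 4.35 CPM in replicates 2, 7 and 5 of 27 weeks. The median pairwise correlation of module 5 was 0.95 without its leading fish and 0.96 with it, but the share of its pairs above 0.6 was 60% without that fish and 80% with it. One of the 5 genes stood at 16.4 CPM in replicate 1 and at most 0.540 CPM in every other fish.

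Nfu_g_1_008185 of module 4 had a lowest value of 0.506, a median of 1.30 and a highest value of 33.9 CPM in the 27-week fish. In exercised 9-week fish the values were 0.339, 0.848, 0.327, 0.8995 and 0.114 CPM, and in unexercised 9-week fish 0.448, 0.966, 0.116, 0.285 and 0.268 CPM. Replicate 2 of the 27-week fish was the high one, and replicates 7 and 10 had 7.01 and 5.77 CPM. Nfu_g_1_001220 of the same module was at 30.4 CPM in replicate 2, at 0.254 to 4.22 CPM in the other 27-week fish, at 0.261 to 1.14 CPM in exercised 9-week fish and at 0.221 to 0.712 CPM in unexercised ones.

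In module 5, Nfu_g_1_021146 had a lowest value of 0.0327, a median of 0.444 and a highest value of 18.9 CPM in the 27-week fish, with 11.1, 8.06 and 6.04 CPM in replicates 2, 7 and 5. Exercised 9-week fish had 3.08, 1.04, 0.109, 0.0692 and 0.265 CPM, and unexercised 9-week fish 1.61, 0.690, 5.17, 1.28 and 0.209 CPM. Nfu_g_1_023167 was at 17.1 CPM in replicate 1 of 27 weeks, with a lowest value of 0.0857 CPM in that group, 0.0272 to 3.45 CPM in exercised 9-week fish and 0.0596 to 3.78 CPM in unexercised ones. Replicates 1, 2, 5 and 7 of 27 weeks stood above the other 6 for both genes.

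Of the 12 members outside the modules, 10 were raised in 1 library and 2 in 2 libraries. Only 6 of the 12 stood at least 5-fold above their next library. The smallest such ratio was 1.20-fold, in a gene raised in 2 libraries. A gene raised in 1 library stood at 12.3 CPM there and at 9.65 CPM in its next. Its single raised library thus reflects the 10 CPM limit. Nfu_g_1_007317, with the second largest maximum of all members, stood at 95.4 CPM in replicate 4 of the 27-week fish. The next value was 6.69 CPM in replicate 5, and the lowest and the median of that group were 0.0359 and 0.441 CPM. Levels in exercised 9-week fish were 0, 0, 0.0544, 0.727 and 0.151 CPM, and in unexercised 9-week fish 0.0598, 0.0828, 0.231, 0.142 and 0.119 CPM. Replicate 4 of 27 weeks held the maximum of 4 members, none of them in a module, at 95.4, 53.6, 42.7 and 16.6 CPM. Replicate 5 of the same group held the maximum of 3 such members, and the largest of these, at 76.2 CPM, stood 131-fold above its next library.

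**Figure D4:**
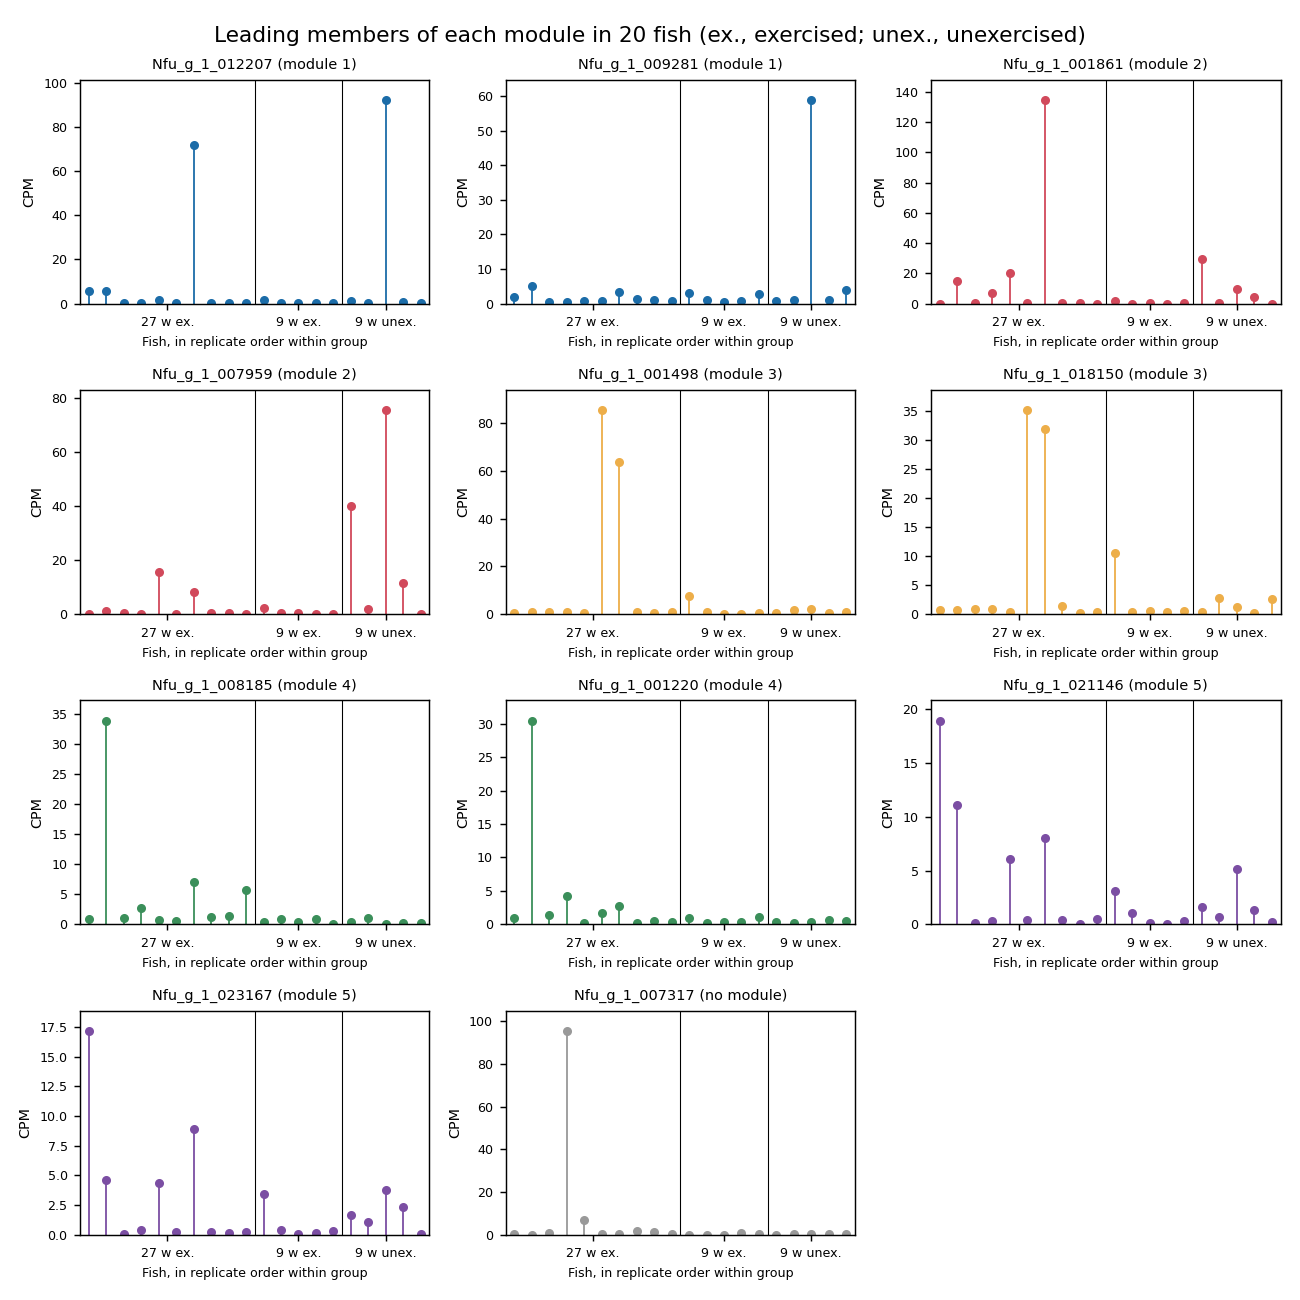
CPM of 11 members in the 20 fish, in replicate order inside each labelled group, on linear axes that differ between panels. Each panel shows a single gene. Shown are the 2 members of largest maximum in each module and, in the last panel, a member in no module. Nfu_g_1_001861 reaches 134.53 CPM in a 27-week fish and Nfu_g_1_012207 reaches 72.0 and 92.3 CPM in 2 fish of different groups.

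Genes outside the list followed the modules, including genes with a median of 1 CPM or more. Among 17174 other genes that reached 2 CPM in some library, 216 had a correlation of 0.9 or more with the mean profile of module 1, of which 63 had a median of 1 CPM or more. Their summed level was 3623 CPM in replicate 3 of the unexercised 9-week fish and 159 to 483 CPM in the other 19, and without that fish 23 of the 216 kept a correlation of 0.9. For module 2 there were 206 such genes, 73 with a median of 1 CPM or more, and 185 of them kept it without that fish. Their sum was 6926 CPM in replicate 7 of 27 weeks. It was 9433, 10205 and 6056 CPM in replicates 1, 3 and 4 of the unexercised 9-week fish. The other 16 fish had 247 to 2923 CPM, the highest of them being replicate 5 of 27 weeks. Replicate 1 of the exercised 9-week fish followed at 2889 CPM. No gene had a correlation of -0.9 or below with any module.

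Module 4 had 77 followers outside the list, which summed to 4506 CPM in replicate 2 of the 27-week fish and 115 to 707 CPM in the other 19, and the most abundant of them reached 953 CPM. Without that fish 0 of the 77 kept a correlation of 0.9. For modules 3 and 5 there were 8 and 28 followers, with sums of 183 CPM in replicate 6 and 281 CPM in replicate 1 of 27 weeks. Of these, 1 of the 8 and 11 of the 28 had a median of 1 CPM or more. Followers were chosen for their correlation with a module, so their sums describe that choice.

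Of all genes, 401 reached at least 2 CPM in their highest library and stood at least 5-fold above every other library, 312 of them outside the list. Replicate 3 of the unexercised 9-week fish held 293 of the 401 and replicate 2 of the 27-week fish held 84, of which 81 were not members. Replicate 4 of 27 weeks had 13 and the other 17 fish 0 to 4 each. Replicate 2 of 27 weeks, with 8 raised members, thus held many more such genes outside the list than within it. Most also lay outside the list in replicate 3 of the unexercised 9-week fish (215 of 293) and replicate 4 of 27 weeks (9 of 13). This count starts at 2 CPM, while the list needs 10 CPM.

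The carrier fish were also compared on 16216 genes outside the list with a median of 1 CPM or more. The mean correlation of replicate 3 of the unexercised 9-week fish with the other 4 of its group was 0.948, against 0.962 to 0.970 for those 4. That of replicate 7 of 27 weeks with the others of its title run was 0.948, against 0.970 to 0.972. A low value did not go with the number of raised members in every fish. Replicate 4 of 27 weeks, with 4 raised members, had 0.951, and the others of its run 0.960 to 0.963. Replicates 1 and 4 of the unexercised 9-week fish, with 24 and 18 raised members, had 0.968 and 0.970. Replicate 3 of the unexercised 9-week fish had 17278 genes outside the list at 1 CPM or more and the other 19 fish had 15900 to 16638. Its library was among the shallower ones, with 25924289 counted reads, and its TMM factor was 1.203, second to 1.23 in replicate 5 of 27 weeks. With the members selected anew on TMM-scaled CPM, that fish still led, with 97 of 150 members raised and 79 at their maximum there, against 114 and 103 on unscaled CPM. The part of depth in these numbers was not tested.

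Gene length was taken from the ratio of the deposited counts to the deposited RPKM, a level scaled by gene length and library size. The 150 members had a median length of 2.13 kb (quartiles 1.48 and 3.75 kb), against 1.44 kb for 6518 other near-silent genes with a count and 2.84 kb for genes with a median of 1 CPM or more. The members were chosen by CPM, which is not scaled by length, and the part of that choice in the difference was not tested. Median lengths were 2.30 kb in module 1, 1.94 kb in module 2, 4.51 kb in module 3 and 2.90 and 2.89 kb in modules 4 and 5. In identifier number, 19 members lay within 5 of another member, in 10 neighbouring pairs with correlations of 0.26 to 0.98. The same count was 0 among the 53 qualifying genes below the border and 6080 among the 6518 other near-silent genes. It grows with the size of a set, and whether 19 differs from a random draw of genes was not tested. Whether numbers follow genome position is not given in the sources used here.

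A further set of near-silent genes, outside the list, was counted in the same fish. It was chosen from the same 20 libraries by a similar rule at a lower level. These 886 genes had a median under 1 CPM, a maximum of at least 2 and under 10 CPM, and 2 CPM or more in 1 to 4 libraries, with no condition on the sets. In the 27-week fish 15 to 146 of them were at 2 CPM or more, with 64.5 ± 47.6 on average (SD, n = 10). Exercised 9-week fish had 37, 9, 26, 16 and 57 (29.0 ± 18.9, SD, n = 5), and unexercised 9-week fish had 110, 26, 422, 81 and 12 (130.2 ± 168, SD, n = 5). Replicate 3 of the unexercised 9-week fish led this count as well, and replicates 2 and 7 of 27 weeks were the next. Of the 886 genes, 354 had their maximum in replicate 3 of the unexercised fish, so its lead is given as a description. With every library thinned to 20597690 reads the means were 64.5, 28.4 and 128.6 in the same order of groups.

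None of the 3 comparisons of this count passed an exact two-sided permutation test of the difference of means. Genes at 2 CPM or more in over 4 libraries were left out of the count. The tests therefore cannot show genes raised in all fish of a group. A pass or a failure speaks only of genes at 2 CPM or more in 1 to 4 of the same 20 libraries that chose them. Each is given as a description. Exercised minus unexercised 9-week fish gave -101.2 genes (n = 5 against 5, exact p = 0.143, adjusted p = 0.143 over 3 comparisons), and -28.2 genes without replicate 3 of the unexercised fish (exact permutation p = 0.286). Lower counts of exercised fish were not uniform, since 1 of the 5 unexercised fish had fewer than 4 of the 5 exercised ones. Fish of 27 weeks minus exercised fish of 9 weeks gave 35.5 genes (n = 10 against 5, exact p = 0.133, adjusted p = 0.143).

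Within the 27-week fish, replicates 6, 8, 9 and 10 had 20, 21, 24 and 15 such genes and replicate 7 had 14.1% of the 886 (mean 41.0 ± 47.1, SD, n = 5), and replicates 1 to 5 had 87, 146, 47, 60 and 100 (88.0 ± 38.6, SD, n = 5). The difference of -47.0 did not pass (exact permutation p = 0.119, adjusted p = 0.143). It passed without replicate 7, at -68.0 (n = 4 against 5, exact permutation p = 0.0159, adjusted p = 0.0476). Of the 10 fish left out in turn, only this one gave a pass. Against exercised 9-week fish, replicates 1 to 5 alone were higher by 59.0 genes (n = 5 against 5, exact permutation p = 0.0159, adjusted p = 0.0476) and replicates 6 to 10 alone by 12 (exact permutation p = 0.802). This split by run was chosen after seeing the data. In both cases the adjusted p of 0.0476 allows for 3 comparisons, and not for the choice of the run or of the fish left out. The smallest p that 5 against 5 allows is 0.00794.

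**Figure D5:**
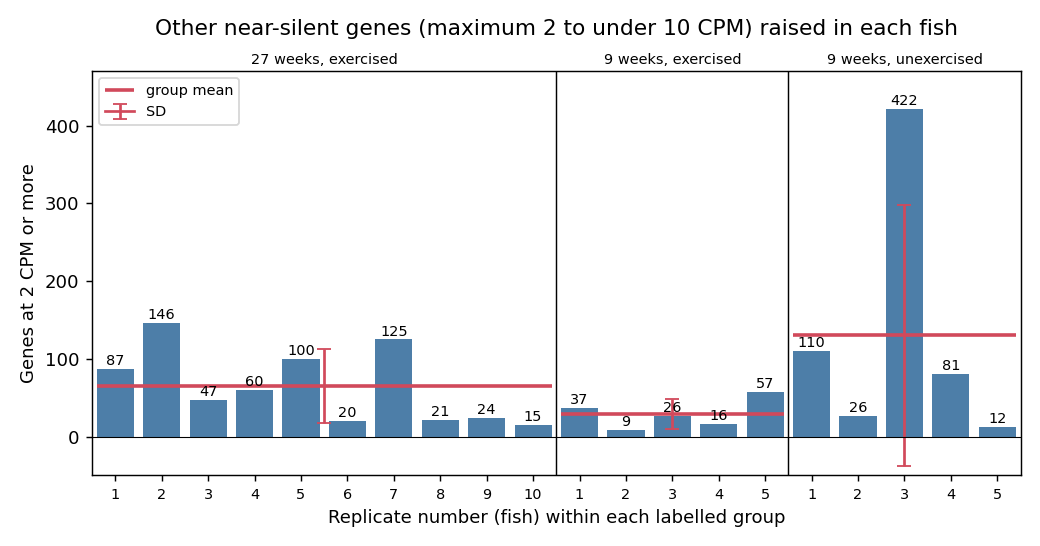
Number of 886 other near-silent genes (maximum 2 to under 10 CPM) at 2 CPM or more in each fish, with the mean (horizontal line) and SD (vertical bar, n = 10, 5 and 5) of each labelled group. Replicate 3 of the unexercised 9-week fish has 422, against 12 to 110 in the rest of its group, and the SD of that group is larger than its mean.

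The study's own comparisons were fitted over all genes with edgeR's quasi-likelihood test. The members' share of the calls and of the unadjusted p under 0.05 is given as a description, because the same values chose the members. The selection asked for overlapping ranges between the same sets and kept the genes of largest maximum CPM. Between exercised and unexercised 9-week fish, 2 of 18520 genes passed an adjusted p of 0.05, which is 0.0108% of the genes tested. Of the members that passed the filter on low counts, 9 had a positive and 108 a negative log2 fold change of exercised over unexercised fish. Of these, 0 were called and 60 had an unadjusted p under 0.05. Among all 18520 genes tested, 2739 had such a p. The median log2 fold change of the members tested was -2.70 against -0.01 over all genes tested. Of the members, 103 had their maximum in replicate 3 of the unexercised fish, so the selection itself favoured negative changes. How far it alone gave these changes and the low unadjusted p was not tested. Without replicate 3 of the unexercised fish the median was -0.34, and 7 of 120 members tested had an unadjusted p under 0.05, as did 2394 of 18617 genes.

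DESeq2 called 487 of 22707 genes in that comparison (2.14%) and 4 members, all lower in exercised fish, and it gave 87 of the 150 members no adjusted p. One of the 4 was Nfu_g_1_007959, with a DESeq2 log2 fold change of -5.34 (adjusted p = 0.0322). The edgeR log2 fold change of the same gene was -5.35 (SE 1.57, adjusted p = 0.218). Its values of 0 to 2.19 CPM in exercised fish overlapped the 0.0894 to 75.5 CPM of unexercised fish, as the selection required of every member. Limma-voom called 2 genes (0.0108%) and 0 members. Of the members it tested, 3 had an unadjusted p under 0.05, as did 2405 of the 18520 genes tested.

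Between 27-week and exercised 9-week fish edgeR called 4609 of 18801 genes (24.5%) and 2 of the members tested (93 with a positive and 40 with a negative log2 fold change), both higher at 27 weeks. These were Nfu_g_1_008185 (log2 fold change 3.43, SE 1.12, adjusted p = 0.0365) and Nfu_g_1_020722 (4.80, SE 1.70, adjusted p = 0.0495), the second of which is named for this call, after its values were seen. As the selection used these same values, both calls are descriptions. Nfu_g_1_008185 stood at 33.9 CPM in replicate 2 of 27 weeks, against a median of 1.30 CPM in that group. Nfu_g_1_020722, a member of no module, was high in few fish, with 23.6 CPM in replicate 5, 19.6 CPM in replicate 8, 6.44 CPM in replicate 7 and 3.29 CPM in replicate 4 of 27 weeks and at most 0.323 CPM in the other 6. Exercised 9-week fish had 0.0308 to 0.484 CPM of it, and an unexercised 9-week fish, replicate 2, had 8.39 CPM. Without any 1 of replicates 2, 3, 4 and 5 of the exercised 9-week fish 0 members were called (9 to 11 at an unadjusted p under 0.05). Beside these stood 3124 of 18980, 2813 of 18973, 2467 of 19005 and 2747 of 18963 genes called. At an unadjusted p under 0.05 there were 6620, 6484, 6325 and 6388 of the same genes. Without replicate 2, 4 or 5 of 27 weeks 1 member was called, beside 3620 of 18676, 4357 of 18688 and 3620 of 18631 genes. Without replicate 9 of 27 weeks 4 members were called, beside 5051 of 18713 genes. With replicates 1 to 5 of 27 weeks alone 5 of 89 members tested were called (50.3% of all genes tested), with replicates 6 to 10 alone 1 of 83 (16.1% of all genes).

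DESeq2 called 5847 of 22787 genes for age (25.7%) and 6 members, and limma-voom 4452 of 18801 genes (23.7%) and 0 members. At an unadjusted p under 0.05 limma-voom had 0 members, beside 7336 of 18801 genes. Between replicates 6 to 10 and replicates 1 to 5 of the 27-week fish, edgeR called 7613 of 18306 genes (41.6%) and 5 of the 97 members tested. All 5 were genes of module 3 and higher in replicates 6 to 10, among them Nfu_g_1_001498 (log2 fold change 5.78, SE 1.59, adjusted p = 0.0140) and Nfu_g_1_018150 (4.70, SE 1.39, adjusted p = 0.0199). Of each, 2 fish of replicates 6 to 10 were high and the other 3 lay within or near the range of replicates 1 to 5. DESeq2 called 7 members among 8242 of 22641 genes (36.4%) and limma-voom 0 members among 7592 of 18306 (41.5%). At an unadjusted p under 0.05 limma-voom also had 0 members, beside 9040 of 18306 genes. Without replicate 7 edgeR called 13 of 99 members tested, 4 higher and 9 lower, beside 7673 of 18453 genes. Without replicate 2 it called 9 of 100 members tested, 8 higher and 1 lower, beside 6924 of 18478 genes. Without replicate 5 or 6 it called 3 members each, beside 6840 of 18419 and 6926 of 18555 genes. With all 20 libraries in 1 edgeR fit, 9 members were called for age, beside 29.4% of all genes, and 11 for the title runs, beside 42.8% of all genes.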

How the data were processed

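Skin RNA of 20 fish was sequenced after TruSeq RNA library preparation, per the labels' protocols. The submitters' processing notes name featureCounts 1.4.6-p4, STAR 2.4.1d and bcl2fastq 1.8.4. For genome build, annotation, strand and reads with several matches, the sources used here state nothing, so close copies and overlapping genes may share reads. The deposited counts are whole reads per gene and library, without normalization. The deposited RPKM values were scaled by the authors. Over 10228 well covered genes they matched the counts only with the 20 library totals recycled down the rows (median SD of the natural log ratio 3.77e-05, against 0.227 with each library's own total), so they served only to obtain gene lengths.

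The members, lists and tests were chosen with earlier results of these data known. Named genes are the 2 members of largest maximum overall and in each module, and those on either side of the border of the list. Modules came from average linkage on 1 minus Pearson's r of log2(CPM + 1). CPM used column totals. Comparisons used edgeR 4.0.16 (R 4.3.3, TMM, filterByExpr, robust quasi-likelihood fits, Benjamini-Hochberg adjustment, only the compared groups), with each SE from the log2 fold change and its F statistic (size of the change over √F). Alternatives were DESeq2 1.42.0, limma-voom (limma 3.58.1), other scaling, filters, thresholds and leaving out each fish. The scripts were tested on simulated data. Replicate numbers follow sample order and pair no fish. All 40 pairs of libraries within sets differed by more than counting noise (lowest chi-square per degree of freedom 36.3). Every per-sample column was used. Marker lists need gene names and were not run.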

Additional observations from a re-analysis of the deposited data

Results flagged for a closer look

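Values of single fish that stood far from the rest of their labelled group were looked for in 42 checks with Dixon's ratio of gap to range. In all 19 were found. Chance gives about 2.1 only for independent values that were not selected. The members and the other near-silent genes were selected for high values in few fish. The 19 therefore cannot be judged against that number and are given as descriptions. The part of the selection in them was not tested.

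In replicate 3 of the unexercised 9-week fish, 114 members were raised, against 24 in the next fish, 422 other near-silent genes were at 2 CPM or more, against 110, and 293 genes of all kinds stood at least 5-fold above every other library, against 0. Nfu_g_1_012207 was at 6.54 on the log2(CPM + 1) scale there, against 1.05 in the next. In replicate 7 of the 27-week fish 36 members were raised, against 8, and Nfu_g_1_012207 was at 6.19, against 2.78. Replicate 2 of that group had 84 genes at least 5-fold above every other library, against 13, with Nfu_g_1_008185 at 5.12 and Nfu_g_1_001220 at 4.97 on the log2(CPM + 1) scale, against 3.00 and 2.38. Nfu_g_1_007317 was at 6.59 in replicate 4 of the 27-week fish, against 2.94, and at 0.79 in replicate 4 of the exercised 9-week fish, against 0.20.

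Replicate 1 of the exercised 9-week fish stood apart 8 times. It had 2 raised members against 0 in each other fish of its group, and 4 genes at least 5-fold above every other library against 1 at most. On the log2(CPM + 1) scale Nfu_g_1_001861 was at 1.33 (next 0.05), Nfu_g_1_012207 at 1.41 (0.54), Nfu_g_1_007959 at 1.67 (0.33), Nfu_g_1_001498 at 3.09 (0.78), Nfu_g_1_018150 at 3.52 (0.60) and Nfu_g_1_023167 at 2.15 (0.48). These 6 genes belong to modules 1, 2, 3 and 5.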

How the results depend on the processing

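The leading fish was replicate 3 of the unexercised 9-week group under every alternative of the selection that kept it. The 203 qualifying genes are 0.759% of all genes. This share was 1.43% (383 genes) at a raised level of 5 CPM, 0.352% (94 genes) at 20 CPM and 0.441% with a median under 0.5 CPM. At 20 CPM 61 members were raised in 1 library and 56 had their maximum in the leading fish. Leaving out 1 fish gave a share of 0.393% to 0.834% (105 to 223 genes), 54 to 115 members raised in 1 library and 37 to 108 with their maximum in the leading fish, each lowest without replicate 3 of the unexercised 9-week fish, when replicate 7 of 27 weeks led. Without both of these fish, an alternative chosen after seeing the data, 0.378% (101 genes) qualified and 47 were raised in 1 library. Modules numbered 4 to 6 when 1 fish was left out, with 4 without replicate 1, 2 or 9 of 27 weeks. They numbered 6 without replicate 3 of the unexercised 9-week fish or replicate 4 of 27 weeks. With log2(CPM + 0.1), with Spearman correlation and with the cut at 0.8 there were 4 modules each. Fewer than 138 members were then in modules, and the largest module held 87, 79 and 81. The number of modules thus depended on the settings. Genes called for exercise were 487 with DESeq2 and 0 with all 20 libraries in 1 fit (1688 at an unadjusted p under 0.05), and members 4 with DESeq2. With 1 fish left out they were 0 to 7 genes (the 7 with exercised 9-week replicate 1 left out) and 0 members. For age, 9238 genes were called with replicates 1 to 5 and 2927 with replicates 6 to 10 alone, and 2467 to 5333 with 1 fish left out, where replicates 3, 4 and 5 of the exercised 9-week fish gave 2813, 2467 and 2747. Members called for age were 6 with DESeq2, 0 with limma-voom, 9 in the fit of all libraries (5633 of 19140 genes, 29.4%), 5 and 1 with the title runs alone and 0 to 4 with 1 fish left out. For the title runs they were 0 with limma-voom, 11 in the fit of all libraries (8187 of 19140 genes, 42.8%) and 3 to 13 with 1 fish left out, beside 6768 to 7673 genes. The difference in other near-silent genes with 1 fish left out was -130.8 to -28.2 for exercise, 26.4 to 42.5 for age and -68.0 to -32.5 for the title runs, and 59.0 for age with replicates 1 to 5 alone, chosen after seeing the data. The causes of these shifts were not tested. No paired analysis was possible because replicate numbers only follow sample order. At 10 CPM a gene has at least about 206 reads, and the part of depth in the low and raised levels was not tested.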
